A study of Mus musculus with 6 samples.

Results

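Prostate tumors of mice with a long polyglutamine tract (48Q) were compared with normal prostate of wild-type mice (WT). The comparison took the 2 libraries labelled 48Q against the 2 labelled WT control, 4 of the 6 libraries of the series, over all 24091 genes of the deposited count table. The 48Q males carried a humanised androgen receptor allele with 48 glutamines (ArhAR48Q/Y), 1 β-catenin allele with a conditional exon 3 (Ctnnb1(Ex3)L/wt) and PBCre-4. PBCre-4 is a Cre recombinase driven by the probasin promoter, which is active in prostate epithelium, so that exon 3 is lost there and not in all cells of the gland. WT mice carried none of these alleles. The humanised allele, the β-catenin allele, the Cre transgene and the tumor itself differed together, and their effects cannot be told apart. The other tumor group of the series (12Q, ArhAR12Q/Y, 2 libraries) carries the same β-catenin and Cre alleles with a tract of 12 glutamines, and its values are given only beside those of 48Q. Each library holds total RNA of fresh prostate tumor or prostate. Ages are not labelled, nor is it stated that the 2 replicates of a group are different animals. The p-values therefore reflect only the spread among these libraries, which may be technical.

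β-catenin carries the signal of secreted Wnt proteins to the nucleus, where it acts with the DNA-binding factors TCF and LEF. Exon 3 encodes the residues that mark β-catenin for degradation, and without it the protein accumulates. Among its usual targets are the pathway's own inhibitors, and in liver and gut it also controls zone-specific programs: glutamine synthesis around the central vein and the Paneth cells of the intestinal crypt. The normal mouse prostate is a secretory gland whose luminal cells fill the lumen with androgen-dependent proteins such as probasin, over a layer of basal cells and a sheath of smooth muscle.

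Levels are given as CPM, counts per 1000000 counts of a library whose total was scaled by TMM (the trimmed mean of M-values), with replicate 1 before replicate 2. The 4 libraries held 27082455 to 28278522 counts. A few secretory genes took a large share of WT reads: the 10 genes with the most reads in WT took 29.3% and 30.9% of the counts there, and 6.16% and 4.07% in 48Q. A fold change is the edgeR log2 fold change ± its standard error, 48Q minus WT, and a gene is called where its Benjamini-Hochberg adjusted p over all genes was under 0.05. The WT libraries differed from each other (r = 0.955 across genes, against 0.983 in 48Q). WT replicate 1 stood apart in stress genes, with Ddit3 at 252 and 16.8 CPM and Hspa5 at 17749 and 2774 CPM in the WT libraries, and WT replicate 2 in muscle genes, with Myh11 at 771 and 2459.7 CPM.

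Of 15050 genes with enough counts, 595 (3.95%) were called higher in 48Q and 185 (1.23%) lower, and 2246 and 1503 had an unadjusted p under 0.05. The groups did not overlap in any called gene, which also held for 34.7% of all tested genes upward and 29.8% downward. These shares stand beside every count below of list members lying above or below both WT libraries. The calls rest on few libraries. Without WT replicate 1 edgeR called 0 genes, and so 0 in every list below, with 2972 at an unadjusted p under 0.05, while DESeq2 without that library called 1059 higher and 439 lower. Without WT replicate 2 it called 301 and 220, and without 48Q replicate 1 or 2 it called 122 and 5, or 98 and 4. Scaled by library totals, the calls came to 1921 higher and 83 lower and the all-gene median moved from 0.02 to 0.71 (log2), so the split between higher and lower depends on the scaling. Between the tumor groups 627 genes (4.17%) were called, 475 of them higher in 48Q, and 47 to 866 were called when each of the 6 libraries was left out in turn. Every gene named below as called kept its sign in each of these settings.

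**Figure D1:**
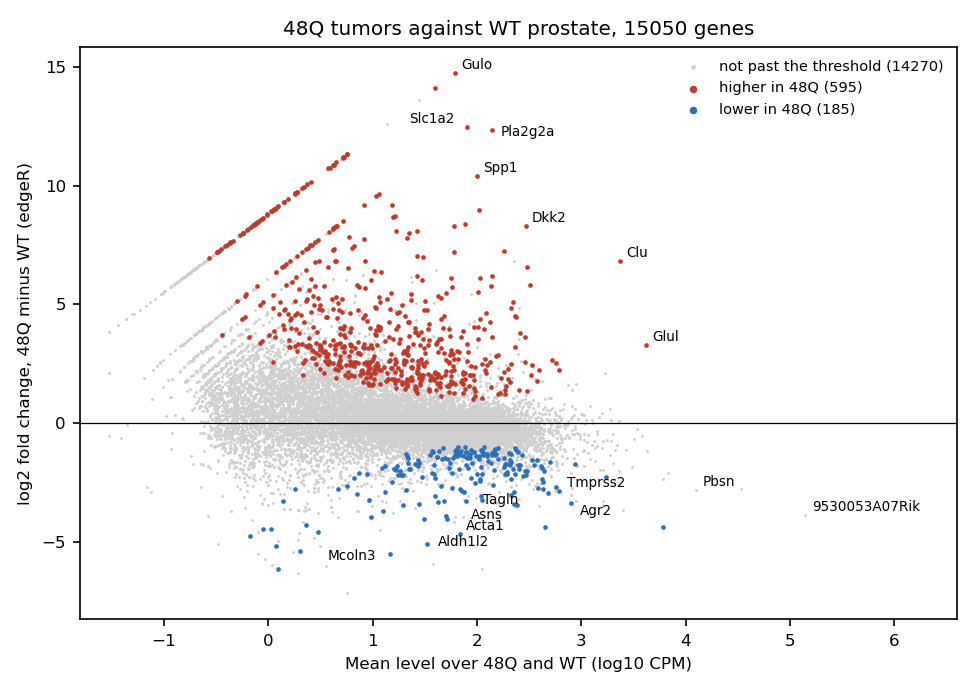
Each point is 1 of 15050 genes, with its mean level over the 48Q and WT libraries (log10 CPM) on the x axis and its edgeR log2 fold change on the y axis. Called genes are red (595 higher) or blue (185 lower); the diagonal lines of points at the upper left are genes with 0 or very few counts in WT, and 9530053A07Rik and Pbsn lie at the far right among genes not past the threshold.

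Some genes that answer to β-catenin were called higher in 48Q tumors. Of 29 Wnt/β-catenin target genes listed, 25 had enough counts, of which 7 were called higher (Apcdd1, Notum, Cd44, Lef1, Znrf3, Sox9 and Axin2), 0 lower and 18 neither. In 21 of the 25 both 48Q libraries lay above both WT libraries and in 0 below, beside 34.7% and 29.8% of all tested genes. Their median log2 fold change was 1.85 (1.72 to 2.33 without each library in turn) beside 0.02 over all genes. Without 48Q replicate 1, 48Q replicate 2 or WT replicate 2, 3, 3 or 7 members were called higher. The filter keeps a gene that is high in 1 group alone, so counts over tested members describe these members only. Ctnnb1 itself (chromosome 9, 120933400 to 120960507) was at 1082 and 957 CPM in 48Q and 669 and 569 in WT (edgeR log2 fold change 0.72 ± 0.30, adjusted p = 0.208) and was not called. Counts per gene cannot show the loss of exon 3, so this value does not check the genotype.

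Apcdd1 (chromosome 18, 62922327 to 62953195), which encodes a membrane inhibitor of Wnt signalling, was at 682 and 571 CPM in 48Q and 3.65 and 18.7 in WT (edgeR log2 fold change 5.80 ± 0.81, adjusted p = 0.0227). Notum (chromosome 11, 120653789 to 120660837), a secreted enzyme that inactivates Wnt proteins, was at 123 and 102 CPM in 48Q and 1.04 and 3.14 in WT (edgeR log2 fold change 5.74 ± 0.58, adjusted p = 0.0108). In both genes the 48Q libraries were close to each other and the WT libraries were several-fold apart, and leaving out each library in turn gave log2 fold changes of 5.06 to 7.41 for Apcdd1 and 5.16 to 6.74 for Notum. Axin2 (chromosome 11, 108920349 to 108950781), a scaffold of the complex that degrades β-catenin and a standard readout of the pathway, was the steadier of them, at 614 and 562 CPM in 48Q and 171 and 173 in WT (edgeR log2 fold change 1.77 ± 0.33, adjusted p = 0.0394). Znrf3, a ubiquitin ligase that removes Wnt receptors, was at 292 and 293 CPM in 48Q and 42.5 and 91.2 in WT (edgeR log2 fold change 2.13, adjusted p = 0.0379). Lef1, a partner of β-catenin on DNA, was at 44.9 and 34 CPM in 48Q and 2.66 and 5.88 in WT (edgeR log2 fold change 3.20, adjusted p = 0.0269), and its WT libraries were again apart. The targets best known for growth were not called. Myc stood at 91.4 and 84 CPM in 48Q and 77.1 and 71.5 in WT (edgeR adjusted p = 0.494), and Ccnd1, the cyclin D1 gene, at 102 and 113 in 48Q between the WT values of 66.5 and 172 (edgeR adjusted p = 0.904). The stem cell receptor Lgr5 was at 141 and 146 CPM in 48Q and 66.1 and 51.3 in WT and was not called (edgeR adjusted p = 0.214), although its groups did not overlap.

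Secreted members of the pathway were called in both directions. Of 37 tested Wnt ligands, receptors and secreted modulators, 4 were called higher (Dkk2, Wnt4, Wnt6 and Frzb) and 1 lower (Rspo2), and the median was 0.35, or 1.09 without WT replicate 2. The lower call was lost without any 1 of the 4 libraries, and 2, 1 and 6 higher calls were made without 48Q replicate 1, 48Q replicate 2 and WT replicate 2. Dkk2 (chromosome 3, 132085292 to 132180304), a secreted ligand of the LRP co-receptors, was at 539 and 626 CPM in 48Q and 0.835 and 2.83 in WT (edgeR log2 fold change 8.29 ± 0.70, adjusted p = 0.00975; 7.68 to 9.43 without each library in turn). In 12Q tumors it was at 489 and 697 CPM. The ligands Wnt4 and Wnt6 were at 54.3 and 68.8 CPM and 39.4 and 35.4 CPM in 48Q, against 3.96 and 8.67 and 0.417 and 1.95 in WT (edgeR adjusted p = 0.0182 and 0.025). Rspo2, which strengthens Wnt signals, was almost absent from the tumors, at 0.120 and 0.0570 CPM against 2.09 and 5.79 (edgeR adjusted p = 0.0438). The Wnt-binding protein gene Sfrp1 was at 83.7 and 104 CPM in 48Q and 6.31 and 19.8 in WT and just missed the threshold (edgeR adjusted p = 0.0513), but it differed from 12Q, where it was at 0.222 and 0.557 CPM (edgeR log2 fold change 7.87, adjusted p = 0.0165). Of 22 tested genes for TCF/LEF factors and the destruction complex, 0 were called, with a median of -0.24; Csnk1a1, a kinase that primes β-catenin for degradation, was at 326 and 329 CPM in 48Q and 436 and 305 in WT.

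The core sequence that TCF and LEF factors read was searched for in promoters, taken as 250 bases before to 50 after the start (RefSeq, GRCm38.p6, the same build as mm10). The letters CTTTGAT or CTTTGAA, on either strand, stood in 6.28% of 11547 tested genes with a promoter entry. They stood in 9.45% of 434 genes called higher and in 9.23% of 130 called lower. They also stood in 1 of 16 tested Wnt targets and in 3 of 9 tested pericentral liver genes (Cyp2e1, Hal and Slc1a2). The entry used for Slc1a2 starts 47755 bases from the start of the counted gene, so its match does not lie at that start. The Wnt target was Sp5, a transcription factor gene, at 45.2 and 30.8 CPM in 48Q and 17 and 14.6 in WT (not called, edgeR adjusted p = 0.218). Its promoter is printed as the only target with a match, beside that of Defa21, a defensin gene among the largest increases, with 2 matches. Only the bases before the start are shown, 5′ to 3′ on the gene's strand, with the matches in capitals (for Sp5 at position -104 and for Defa21 at -112 and -72, counted from the start). Sp5 lies at chr2:70474673-70474922 on the plus strand and Defa21 at chr8:21025295-21025544 on the plus strand.
Sp5: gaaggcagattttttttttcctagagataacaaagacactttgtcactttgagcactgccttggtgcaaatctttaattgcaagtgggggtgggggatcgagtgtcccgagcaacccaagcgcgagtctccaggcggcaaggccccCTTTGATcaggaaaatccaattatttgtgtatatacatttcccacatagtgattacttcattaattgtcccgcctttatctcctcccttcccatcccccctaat
Defa21: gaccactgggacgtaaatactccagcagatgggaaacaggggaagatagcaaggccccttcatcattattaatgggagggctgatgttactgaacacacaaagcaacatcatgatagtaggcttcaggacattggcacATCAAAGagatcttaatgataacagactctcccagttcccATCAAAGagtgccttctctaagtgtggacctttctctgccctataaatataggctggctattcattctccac
Such a match is a description of these letters and says nothing on binding. Among genes called higher, Axin2, Lef1, Cd44, Glul, Dkk2 and Wnt6 had a promoter entry with no match in this window. Apoc4, Cxcl15, Elovl6 and Oas1a, also called higher, had 1 match each.

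Some genes that β-catenin controls in liver and gut were far higher in 48Q tumors than in WT prostate, and a few of them higher than in 12Q tumors too. Gulo (chromosome 14, 65986787 to 66009210), which encodes the last enzyme of vitamin C synthesis, was at 169 and 76.6 CPM in 48Q and had 0 counts in both WT libraries. It was at least 849.6-fold higher, a lower bound computed with 3 counts in each WT library (529.9 to 1169 without each library in turn; edgeR adjusted p = 0.0112). In 12Q it was at 0.629 and 0.186 CPM (edgeR log2 fold change 8.25, adjusted p = 0.0205), so it separated the tumor groups as well. Slc1a2 (chromosome 2, 102658683 to 102790784), a glutamate transporter, was at 200 and 123 CPM in 48Q, with 1 count in WT, a ratio of 6696 (95% interval 1202 to 264510). Both the interval and the bound reflect counting error alone. In 12Q Slc1a2 was at 1.41 and 8.17 CPM (edgeR log2 fold change 5.07, adjusted p = 0.0365).

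Glul (chromosome 1, 153899929 to 153909723), glutamine synthetase, took 0.879% and 0.988% of the 48Q counts and 0.0641% and 0.0545% of the WT counts. It was at 7258 and 7971 CPM in 48Q and 906 and 672 in WT (edgeR log2 fold change 3.27 ± 0.54, adjusted p = 0.0307; 3.06 to 3.50 without each library in turn), and at 3516 and 2137 CPM in 12Q, a difference from 48Q that was not called (edgeR adjusted p = 0.144). Cyp2e1, a cytochrome P450 of the same liver zone, was at 51.1 and 41.4 CPM in 48Q and 0 and 1.24 in WT and was not called (edgeR adjusted p = 0.105); the 12Q libraries lay far apart at 57.9 and 2.2 CPM. Of 14 tested pericentral genes 3 were called higher (Glul, Slc1a2 and Gulo), 0 lower and 11 neither, with a median of 1.59. Tbx3, a transcription factor of that zone, was at 764 and 827 CPM in 48Q and 892 and 1014 in WT (edgeR adjusted p = 0.645), and the ammonia transporter gene Rhbg stayed under 1 CPM in all 4 libraries.

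Products of the intestinal crypt made another such group. Of 16 tested Paneth and crypt genes 5 were called higher (Pla2g2a, Clca1, Defa24, Defa17 and Sox4) and 0 lower, with a median of 2.03. The calls came to 0, 2 and 0 without 48Q replicate 1, 48Q replicate 2 and WT replicate 2, while the median stayed at 2.02 to 2.16. Pla2g2a (chromosome 4, 138831857 to 138835189), a secreted phospholipase of Paneth cells that kills bacteria, was at 419 and 136 CPM in 48Q and had 1 count in each WT library, a ratio of 5717 (95% interval 1582 to 47208). It was at 0.0370 and 2.82 CPM in 12Q (edgeR log2 fold change 7.57, adjusted p = 0.0449). Defa24 and Defa17, Paneth cell defensins, were at 11.4 and 6.5 CPM and 2.86 and 1.8 CPM, with 0 counts in WT (edgeR adjusted p = 0.0324 and 0.0396). Defa21 was at 8.43 and 12.4 CPM in 48Q, 0 in WT and 29.7 and 36.1 CPM in 12Q, the reverse order of Defa24, which was at 0 and 0.124 in 12Q. Defensin genes have near-identical copies, and how reads were shared among them is not known. Clca1, a secreted protein of goblet cells, was uneven between the tumors at 20.2 and 2.74 CPM. Mmp7, the metalloproteinase of Paneth granules, was high in every library, at 2549.8 and 2899 CPM in 48Q and 738 and 513 in WT (edgeR adjusted p = 0.0846). The stem cell marker Olfm4 was lower in both tumors than in WT, at 41.3 and 20.1 CPM in 48Q and 99.99 and 63.8 in WT, and was not called (edgeR adjusted p = 0.141).

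**Figure D2:**
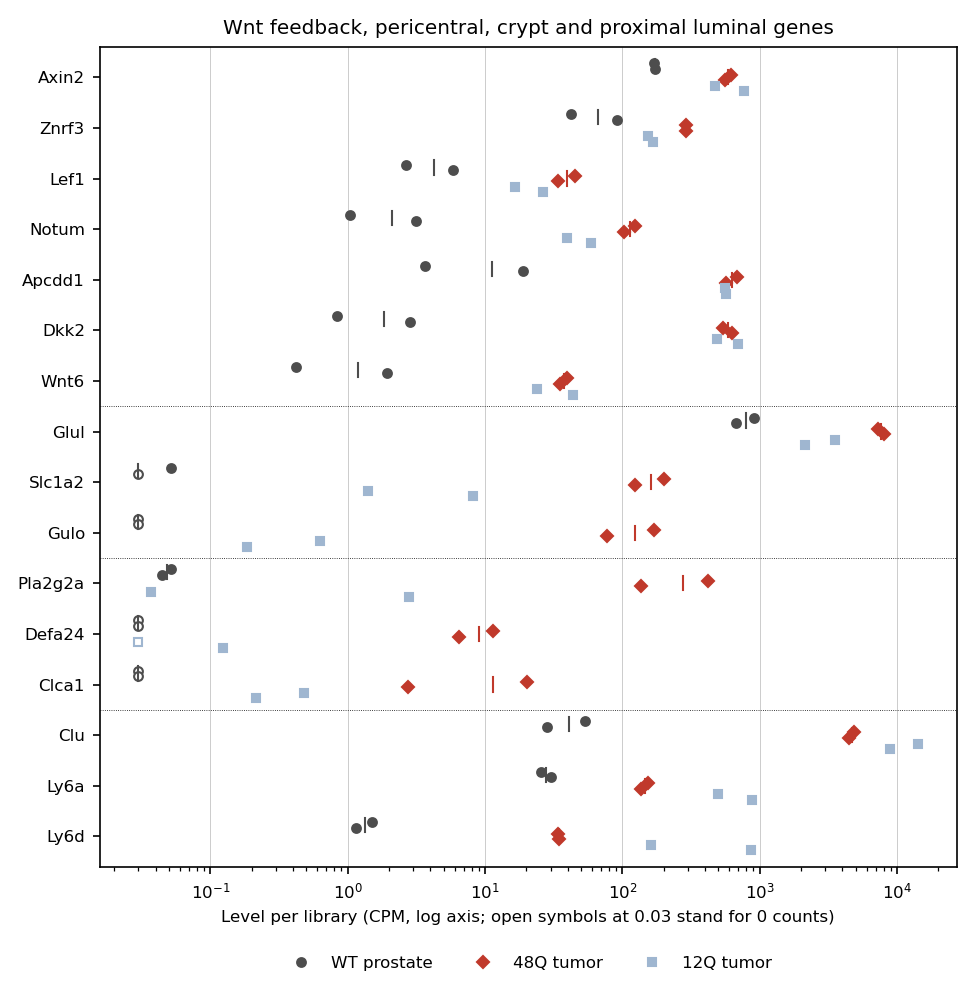
Levels per library (CPM, log axis) of 16 genes in WT prostate (circles), 48Q tumors (diamonds) and 12Q tumors (squares); short bars mark the WT and 48Q means and open symbols at 0.03 stand for 0 counts. Dotted lines part Wnt pathway genes, pericentral liver genes, intestinal crypt genes and proximal luminal genes. The 48Q libraries lie above both WT libraries in each gene, and in Slc1a2, Gulo, Pla2g2a and Defa24 also far above 12Q.

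The most abundant secretory products of the prostate stood at lower levels in both 48Q libraries than in both WT libraries without passing the test. 9530053A07Rik (chromosome 7, 28129466 to 28164811), the gene with the most reads in WT, was at 24658 and 10832 CPM in 48Q and 245820 and 281020 in WT, a difference that was not called (edgeR log2 fold change -3.89, adjusted p = 0.237). Pbsn (chromosome X, 77837898 to 77853500), probasin, was at 3954 and 2248 CPM in 48Q and 28214 and 16143 in WT, and also missed the threshold (edgeR log2 fold change -2.84 ± 0.72, adjusted p = 0.0733). In both genes the groups did not overlap. Against 12Q tumors, where Pbsn was at 3.33 and 5.14 CPM, the difference was called (edgeR log2 fold change 9.51, adjusted p = 0.0165). Tgm4, the transglutaminase of prostate secretion, was at 9655 and 7509 CPM in 48Q and 68614 and 50100 in WT (edgeR adjusted p = 0.295), and the 12Q libraries lay apart at 14538 and 598 CPM.

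Of 24 tested genes listed with the secretory products 2 were called higher (Clu and Timp1), 2 lower (Gsdma and Tmem45b) and 20 neither. The list went both ways, with 13 members above both WT libraries and 10 below, beside 34.7% and 29.8% of all tested genes. These calls were lost without either 48Q library, and were 1 higher and 3 lower without WT replicate 2. The list was not limited to secreted proteins, and Pbsn, Tgm4 and 9530053A07Rik were among the 20 not called. Gsdma, a gasdermin, was at 153 and 152 CPM in 48Q and 927 and 1049 in WT (edgeR log2 fold change -2.70 ± 0.29, adjusted p = 0.0126). Clu (chromosome 14, 65968483 to 65981548), the secreted chaperone clusterin, was at 4879 and 4476 CPM in 48Q and 53.4 and 28.5 in WT (edgeR log2 fold change 6.84 ± 0.75, adjusted p = 0.0136; 6.44 to 7.36 without each library in turn). Among 35 tested androgen-responsive genes 4 were called higher (Pmepa1, Adamts1, Mboat2 and Homer2) and 2 lower (Tmprss2 and Sgk1), with a median of -0.82. In the same list 19 lay below both WT libraries and 12 above, beside 29.8% and 34.7% of all tested genes. The calls came to 1 and 0 without 48Q replicate 1, 0 and 0 without 48Q replicate 2, and 1 and 3 without WT replicate 2. Tmprss2 (chromosome 16, 97564682 to 97611195), a luminal surface protease, was at 149 and 140.1 CPM in 48Q and 1174 and 956 in WT (edgeR log2 fold change -2.88 ± 0.29, adjusted p = 0.0108), with groups far apart. Pmepa1, which restrains TGF-β signalling, rose, at 40.8 and 53 CPM in 48Q and 6.47 and 8.98 in WT (edgeR adjusted p = 0.023).

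The core letters of the androgen receptor's DNA element, AGAACA, were searched for in the same promoter windows. On either strand they stood in 12.65% of the 11547 promoters, in 18.2% of those of genes called higher and in 14.62% of genes called lower. They stood in 4 of 26 tested androgen-responsive genes (15.38%) and in 6 of 15 genes of the secretory list (Pbsn, 9530053A07Rik, Azgp1, Ceacam10, Mgll and Pigr). The promoters of the 2 genes with most reads among these are shown, with the match in capitals. It lies at position -95 in Pbsn (chrX:77853501-77853750, minus strand) and -183 in 9530053A07Rik (chr7:28129216-28129465, plus strand).
Pbsn: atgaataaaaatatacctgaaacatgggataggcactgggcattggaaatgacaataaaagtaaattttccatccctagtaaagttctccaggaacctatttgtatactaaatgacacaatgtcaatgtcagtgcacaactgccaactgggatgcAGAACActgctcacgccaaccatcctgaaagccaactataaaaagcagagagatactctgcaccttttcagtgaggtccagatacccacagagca
9530053A07Rik: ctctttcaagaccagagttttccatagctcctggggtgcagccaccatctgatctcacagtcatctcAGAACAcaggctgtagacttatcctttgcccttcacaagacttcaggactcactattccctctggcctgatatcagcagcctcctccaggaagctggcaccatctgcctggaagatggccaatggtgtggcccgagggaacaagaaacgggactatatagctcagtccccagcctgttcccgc
The letters are short and common, and no occupancy was measured here.

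Markers of prostate epithelium were present in 48Q tumors. The summed defining markers of luminal cells (Krt8, Krt18, Cdh1, Epcam and Hoxb13) were at 2138 and 1830.0 CPM in 48Q and 5939 and 2300 CPM in WT, and 0 of 5 were called. Basal cells (Trp63, Krt5 and Krt14) were at 114 and 134 CPM against 120 and 128 CPM. In bulk tissue, fewer cells of a type and less RNA per cell cannot be told apart. Of 17 tested basal genes 0 were called against WT, with 8 whose libraries overlapped and a median of -0.23. Against 12Q, however, 6 were called higher in 48Q, beside 475 of all 15050 tested genes. Trp63, the p63 factor of basal cells, was at 29.6 and 24.2 CPM in 48Q and 33.9 and 42.9 in WT and at 0.0370 and 0.186 in 12Q (edgeR log2 fold change 7.80, adjusted p = 0.00813). Krt5, a basal keratin, was at 65.2 and 79.5 CPM in 48Q and 30.2 and 72.1 in WT and at 0.0740 and 0.433 in 12Q (edgeR log2 fold change 8.08, adjusted p = 0.0165). Of 20 tested luminal genes 1 was called higher and 0 lower. The call was Foxa2, a gene at low counts that is also listed with the lineage factors below. In the list 9 lay below both WT libraries, beside 29.8% of all tested genes. The list median of -0.68 came to 0.03 without WT replicate 1, which had the highest level of Krt8, Krt18 and Krt19 of the 4 libraries.

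About the proximal ducts, where luminal progenitors lie, many marker genes were called higher. Of 15 tested proximal luminal progenitor genes 7 were called higher (among them Clu, Cldn10, Ly6d, Ppp1r1b, Krt4 and Ly6a), 0 lower and 8 neither, and 13 lay above both WT libraries, with a median of 4.08 (3.63 with members at 0 in WT set to their bound). The calls numbered 2, 2 and 3 without 48Q replicate 1, 48Q replicate 2 and WT replicate 2, and 11 by DESeq2 without WT replicate 1. Ly6d, a surface marker of castration-resistant luminal cells, was at 34 and 34.6 CPM in 48Q and 1.51 and 1.15 in WT (edgeR log2 fold change 4.69, adjusted p = 0.0363), and lay below 12Q, at 160.3 and 858 (edgeR log2 fold change -3.89, adjusted p = 0.0488). Ly6a, which encodes the progenitor marker Sca-1, was at 154 and 137 CPM in 48Q and 25.4 and 30.3 in WT (edgeR adjusted p = 0.025) and also below 12Q (498 and 874 CPM, edgeR adjusted p = 0.0297). Cldn10, a claudin, was at 21.6 and 11.5 CPM in 48Q and 0.417 and 0.221 in WT (edgeR adjusted p = 0.0469) and nearly absent from 12Q, at 0.814 and 0.0619 CPM (edgeR adjusted p = 0.0532).

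Among 20 tested lineage transcription factors 3 were called higher (Foxa2, Sox9 and Runx1) and 0 lower. Sox9, a factor of prostate buds and progenitors, was at 234 and 163 CPM in 48Q and 57.8 and 26 in WT (edgeR log2 fold change 2.24 ± 0.43, adjusted p = 0.0423). Runx1 was at 86.5 and 94.2 CPM in 48Q and 32.4 and 23.7 in WT (edgeR adjusted p = 0.0387). Without each library in turn, log2 fold changes were 1.77 to 2.93 for Sox9, 1.47 to 1.92 for Runx1 and 4.92 to 9.63 for Foxa2. Foxa2, a forkhead factor of fetal and neuroendocrine prostate, was at a low 3.22 and 3.37 CPM against 0.104 and 0, a ratio of 68.9 (95% interval 18.8 to 572). Neuroendocrine markers themselves gave no call among 4 tested genes; Eno2 was at 2.53 and 2.22 CPM in 48Q and 4.49 and 3.54 in WT. Hsd17b3, which makes testosterone from androstenedione, was the 1 steroid enzyme gene called among 16, at 5.81 and 3.62 CPM in 48Q and 0 counts in WT (at least 32.6-fold, edgeR adjusted p = 0.0307). Seminal vesicle genes went both ways. Of 10 tested 3 were called higher (Svs4, Svs5 and Sva), 0 lower and 7 neither, and 8 lay above both WT libraries and 2 below (2, 0 and 1 calls without 48Q replicate 1, 48Q replicate 2 and WT replicate 2). The 2 below, Gm5615 and Serpine2, were the most abundant members, at 277 and 243 CPM in 48Q and 3361 and 2523 in WT and at 118 and 158 CPM in 48Q and 316 and 357 in WT. The list summed to 427 and 463 CPM in 48Q and 3678 and 2880.5 CPM in WT. Svs4 and Svs5 were at 13.4 and 19.6 CPM and 5.93 and 10.6 CPM in 48Q and at 0 and 0.0442 and 0.0522 and 0.0442 in WT (edgeR adjusted p = 0.016 and 0.0158). The summed defining markers Svs2, Svs4 and Svs5 were at 20.9 and 30.8 CPM in 48Q, 0.0522 and 0.0884 CPM in WT, where Svs2 was at 0, and 1.26 and 2.26 CPM in 12Q. Whether some of this RNA came from seminal vesicle tissue was not tested.

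Some keratins and envelope proteins of skin and hair were called higher in 48Q tumors, from very low levels in WT prostate. Of 32 genes of squamous keratinization listed, 29 were tested, with 10 called higher, 0 lower and 19 neither. The median was 4.15, or 2.90 with members at 0 in WT set to their bound. Summed, the list was at 374 and 485 CPM in 48Q and 455 and 171 CPM in WT, so the libraries overlapped. Leaving out 48Q replicate 1, 48Q replicate 2 or WT replicate 2 left 3, 1 or 2 calls. Krt6a, a keratin of stressed and wound-edge epithelium, was at 5.69 and 9.15 CPM in 48Q and 0.104 and 0.0442 in WT, a ratio of 104 (95% interval 35.4 to 506). Hrnr, hornerin of the cornified envelope, was at 4.94 and 7.13 CPM against 0.0522 and 0.0442 (edgeR adjusted p = 0.0182) and was at 0 and 0.0309 in 12Q (edgeR log2 fold change 8.16, adjusted p = 0.0205). Cnfn, cornifelin, had 0 counts in WT and 1.29 and 2.57 CPM in 48Q, but was higher in 12Q, at 36.5 and 20.2 CPM (edgeR log2 fold change -3.87, adjusted p = 0.0365). So the members differed in which tumor group they were high in. Krt1 and Krt10, the main keratins of epidermis, were at 3.91 and 4.65 CPM in 48Q and 1.1 and 0.884 in WT and at 5.54 and 4.39 CPM in 48Q and 0.991 and 1.37 in WT, and neither was called (edgeR adjusted p = 0.0837 and 0.112).

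Of 38 hair follicle genes 26 were tested, with 9 called higher and 0 lower. Their median was 6.08, or 3.28 with bounds. Summed, the list was lower in 48Q, at 504 and 720 CPM, than in WT, at 1027 and 962 CPM. The calls came to 3, 3 and 2 when 48Q replicate 1, 48Q replicate 2 and WT replicate 2 were left out. Dlx3, a homeobox factor of the hair matrix, was at 15.1 and 22.7 CPM in 48Q and 0.156 and 0.398 in WT (edgeR log2 fold change 6.04 ± 0.57, adjusted p = 0.00991), and higher in 12Q (64.7 and 114 CPM, edgeR adjusted p = 0.0459). Tchh, the inner root sheath protein trichohyalin, was at 74.3 and 146 CPM in 48Q and 0.991 and 2.12 in WT (edgeR adjusted p = 0.037). Krt84, a hard keratin, was the other way round between the tumors, at 9.94 and 6.67 CPM in 48Q and 0.0370 and 0.0309 in 12Q (edgeR log2 fold change 7.77, adjusted p = 0.0188). Gata3, a factor of both hair and luminal prostate, was lower in both tumors than in WT, at 305 and 420.3 CPM in 48Q and 983 and 922 in WT, and not called (edgeR adjusted p = 0.0825).

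Many genes of mitosis were called higher in 48Q. Of 34 tested genes of mitosis and G2/M 23 were called higher, 0 lower and 11 neither, and 32 lay above both WT libraries, with a median log2 fold change of 2.30 (1.89 to 2.62 without each library in turn). The count of calls was less steady than the median: edgeR called 1, 0 and 0 of the 34 without 48Q replicate 1, 48Q replicate 2 and WT replicate 2, while DESeq2 without WT replicate 1 called 27. Cenpf, a kinetochore protein, was at 19.9 and 36.4 CPM in 48Q and 4.85 and 3.89 in WT (edgeR log2 fold change 2.69 ± 0.40, adjusted p = 0.0251). Ccna2, cyclin A2, was at 16.5 and 26.9 CPM in 48Q and 3.6 and 4.95 in WT (edgeR log2 fold change 2.34, adjusted p = 0.0267). Mki67, the Ki-67 proliferation marker, was at 66.9 and 118 CPM in 48Q and 18 and 22 in WT (edgeR adjusted p = 0.0444). In each of these 48Q replicate 2 was the higher tumor. Pttg1 and Anln, which act in chromosome separation and cell division, were not called, Pttg1 at 9.21 and 13.7 CPM in 48Q and 11.8 and 11.8 in WT (edgeR adjusted p = 0.969) and Anln at 15.7 and 24.9 CPM in 48Q and 30.6 and 18.2 in WT (edgeR adjusted p = 0.75). Of 35 tested genes of DNA replication and G1/S 0 were called, 23 lay above both WT libraries and the median was 0.98. Mcm6, a replication helicase subunit, was at 36.1 and 42.9 CPM in 48Q and 13.5 and 26.7 in WT (edgeR adjusted p = 0.168). The only member of 26 tested CDK inhibitor and p53 genes that was called was Cdk6, a G1 kinase, at 101 and 97.3 CPM in 48Q and 13.9 and 23.4 in WT (edgeR log2 fold change 2.41 ± 0.31, adjusted p = 0.0187).

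Metabolic lists gave 0 to 3 calls each against WT, beside 3.95% of all tested genes called higher and 1.23% lower. Of 20 tested glycolysis genes 1 was called higher, Slc16a3, a lactate exporter, at 4.25 and 5.05 CPM in 48Q and 0.522 and 0.575 in WT (edgeR adjusted p = 0.0296), and the median was 0.04. Against 12Q 11 of the 20 were called lower in 48Q, beside 152 of all 15050 tested genes. Among them was Ldha, lactate dehydrogenase, at 265 and 290.1 CPM in 48Q, 383 and 363 in WT and 917 and 1025 in 12Q (edgeR log2 fold change -1.81, adjusted p = 0.029). Pkm, pyruvate kinase, was also highest in 12Q, at 242 and 279 CPM in 48Q, 209.7 and 199.8 in WT and 916 and 1259.7 in 12Q (edgeR adjusted p = 0.495 against WT and 0.0279 against 12Q). Of 26 sterol and lipid genes 3 were called higher, among them Elovl6, which lengthens fatty acids, at 46.1 and 64.8 CPM in 48Q and 4.54 and 7.83 in WT (edgeR log2 fold change 3.16 ± 0.64, adjusted p = 0.048). Oxidative phosphorylation subunits gave 0 calls of 43, while 32 lay below both WT libraries, against 29.8% of all genes. Their median was -0.35, or -0.21 without WT replicate 1, and it was positive with library totals (0.35).

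Of 22 tested genes listed with serine and folate one-carbon metabolism 3 were called lower, beside 1.23% of all genes, and 0 higher. The 3 include Asns, which makes asparagine and is itself not a serine or folate enzyme. Aldh1l2 (chromosome 10, 83487447 to 83534140), a mitochondrial folate enzyme, was at 2.14 and 1.65 CPM in 48Q and 69 and 60.1 in WT (edgeR log2 fold change -5.09 ± 0.46, adjusted p = 0.00991; -5.29 to -4.92 without each library in turn), and was at 1.29 and 2.72 CPM in 12Q. Asns (chromosome 6, 7675171 to 7693182), asparagine synthetase, was at 44.7 and 37.1 CPM in 48Q and 615 and 272 in WT (edgeR log2 fold change -3.44 ± 0.44, adjusted p = 0.0186). Mthfd2, a mitochondrial folate enzyme, was at 14.1 and 15.8 CPM in 48Q and 142 and 57 in WT (edgeR log2 fold change -2.73 ± 0.45, adjusted p = 0.0313). WT replicate 1 was the higher WT library in both, and without it their log2 fold changes were -2.74 and -1.93, while that of Aldh1l2 was -4.99. Psat1, of serine synthesis, was at 80.3 and 78.5 CPM in 48Q and 271 and 121 in WT and was not called. The metallothionein genes Mt1 and Mt2, which bind zinc, were the 2 called lower among 24 genes of zinc handling and citrate, at 125 and 90.7 CPM in 48Q and 1115 and 579 in WT and 115 and 99.3 CPM in 48Q and 1000 and 486 in WT (edgeR adjusted p = 0.0324 and 0.0324). Mgst1, a microsomal glutathione transferase, was the 1 called of 29 antioxidant genes, at 96.9 and 104 CPM in 48Q and 9.23 and 14.5 in WT (edgeR log2 fold change 3.08 ± 0.32, adjusted p = 0.0114).

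Genes of protein folding and export from the endoplasmic reticulum lay below WT in nearly every member, mostly without a call. Of 32 tested members 4 were called lower (Sec24d, Atf6, Agr2 and Ern1), 0 higher and 28 neither, and 29 lay below both WT libraries, against 29.8% of all genes. The median was -1.64, or -0.86 without WT replicate 1. Without 48Q replicate 1 or 2 the calls came to 0, and without WT replicate 2 to 8. Agr2 (chromosome 12, 35992925 to 36004081), a disulfide isomerase for secreted mucins, was at 185 and 100.3 CPM in 48Q and 1723 and 1207 in WT (edgeR log2 fold change -3.36 ± 0.62, adjusted p = 0.0387; -3.87 to -2.99 without each library in turn), and lower still in 12Q, at 19.9 and 6.96 CPM (edgeR log2 fold change 3.41, adjusted p = 0.0408). Atf6, a sensor of unfolded protein, was even between replicates, at 252 and 229.8 CPM in 48Q and 783 and 735 in WT (edgeR log2 fold change -1.65 ± 0.27, adjusted p = 0.0306). Sec24d, a coat protein of export vesicles, was at 103 and 105 CPM in 48Q and 512 and 299 in WT (edgeR log2 fold change -1.96, adjusted p = 0.0298). The chaperone gene Hspa5 was at 1899 and 2057 CPM in 48Q and 17749 and 2774 in WT, and was not called (edgeR adjusted p = 0.18; log2 fold change -0.49 without WT replicate 1). Ddit3, the stress factor CHOP, was at 18.6 and 9.47 CPM against 252 and 16.8, with WT replicate 1 alone far above the other 3 libraries (edgeR adjusted p = 0.142). The part of this library's stress genes in the list's result was not tested.

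**Figure D3:**
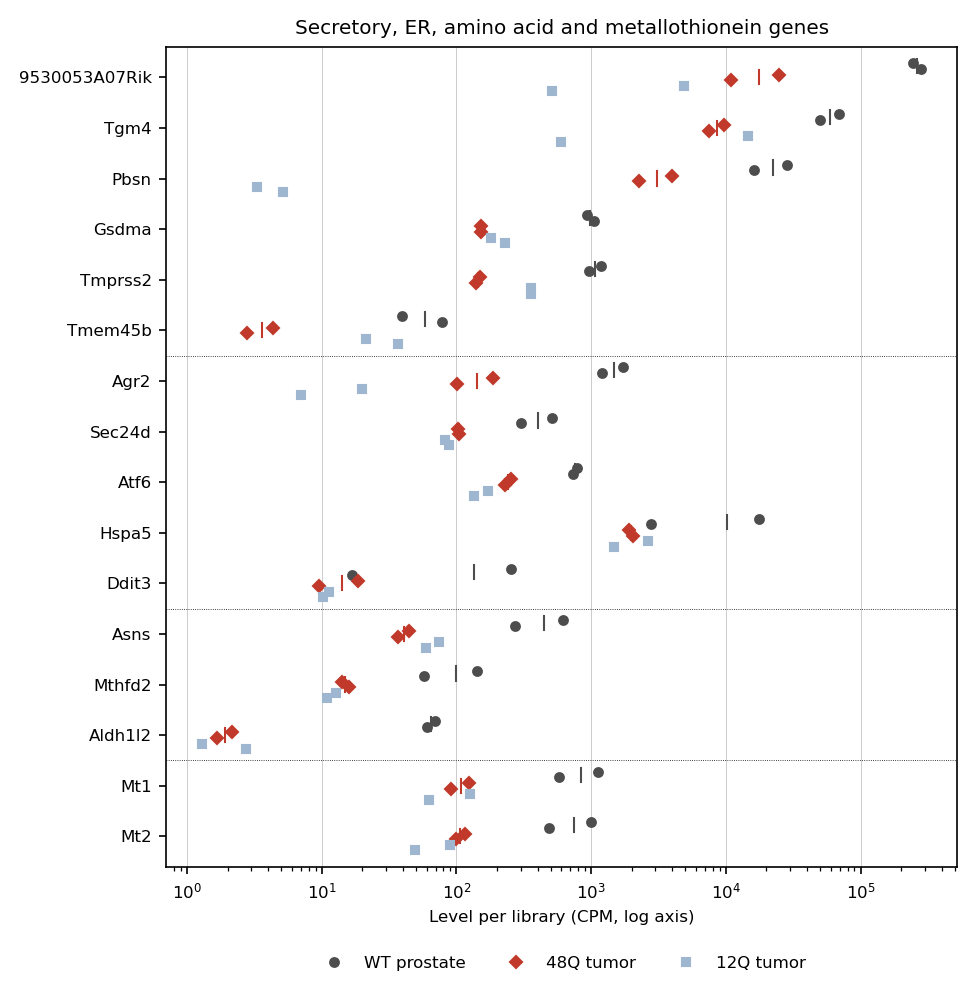
Levels per library (CPM, log axis) of 16 genes in WT prostate (circles), 48Q tumors (diamonds) and 12Q tumors (squares), with short bars at the WT and 48Q means. Dotted lines part secretory and luminal genes, endoplasmic reticulum genes, amino acid and folate genes, and metallothioneins. Both 48Q libraries lie below both WT libraries in each gene except Ddit3, where a 48Q library is above WT replicate 2; in Hspa5, Ddit3 and Asns the WT libraries are far apart.

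Smooth muscle genes lay below WT. Of 12 tested 10 were below both WT libraries, beside 29.8% of all tested genes, and 3 of them were called lower (Tagln, Actg2 and Cnn1). The list median was -2.64 (-3.41 to -1.93 without each library in turn). The 3 calls were lost without any 1 of the 4 libraries, while DESeq2 without WT replicate 1 called 11 lower. Myh11, smooth muscle myosin, was at 263 and 69.4 CPM in 48Q and 771 and 2459.7 in WT and was not called (edgeR adjusted p = 0.072). Tagln, an actin-binding protein of contractile cells, was at 139.7 and 60.1 CPM in 48Q and 485 and 839 in WT (edgeR log2 fold change -2.73 ± 0.53, adjusted p = 0.0439). Of the 4 libraries WT replicate 2 was highest and 48Q replicate 2 lowest in both genes. Against 12Q 6 of the 12 were called higher in 48Q, beside 475 of all 15050 tested genes. Cnn1, calponin, was at 70 and 22.4 CPM in 48Q, 236 and 523 in WT and 0.666 and 0.681 in 12Q (edgeR adjusted p = 0.0498 against WT and 0.0229 against 12Q). Skeletal muscle markers, of muscle outside the gland, were at 73.5 and 200.6 CPM in WT and 8.52 and 1.97 CPM in 48Q (Acta1 and Ckm summed). Of 5 tested 2 were called lower, Acta1 and Tnnc2. The part of such tissue in other results was not tested.

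Fibroblast genes gave no call against WT but several against 12Q. Of 18 tested 0 were called against WT, and the median was 1.01. Of these genes 13 lay above both WT libraries, beside 34.7% of all tested genes. Against 12Q 8 were called higher in 48Q, beside 475 of all 15050 tested genes. Pdgfra, a fibroblast receptor, was at 82 and 63.6 CPM in 48Q and 23.4 and 42.2 in WT (edgeR adjusted p = 0.109) and at 0.851 and 1.11 in 12Q (edgeR log2 fold change 6.20, adjusted p = 0.00813). Lum, the proteoglycan lumican, was at 63.5 and 57 CPM in 48Q and 18 and 22.9 in WT and 0.0370 and 0.217 in 12Q (edgeR log2 fold change 8.78, adjusted p = 0.00813). Matrix remodelling genes gave 7 calls upward of 32 tested and 0 downward, with 25 above both WT libraries and a median of 1.70. Without 48Q replicate 1, 48Q replicate 2 and WT replicate 2 there were 2, 2 and 3 calls. Spp1 (chromosome 5, 104435111 to 104441053), osteopontin, was at 229 and 172 CPM in 48Q against 0.156 and 0.133 in WT, 3 counts in each (edgeR log2 fold change 10.40 ± 0.81, adjusted p = 0.0083). Tnc, tenascin C, was at 60.5 and 35.2 CPM in 48Q and 2.76 and 3.94 in WT (edgeR log2 fold change 3.83 ± 0.49, adjusted p = 0.0186). Adamts1, a matrix protease, was at 114 and 114 CPM in 48Q and 13.8 and 14 in WT (edgeR log2 fold change 3.04 ± 0.35, adjusted p = 0.015), with little spread in either group. Lox, which cross-links collagen, was at 24.8 and 26.2 CPM in 48Q and 8.45 and 6.06 in WT (edgeR adjusted p = 0.049) and at 0.222 and 0.371 in 12Q (edgeR log2 fold change 6.39, adjusted p = 0.00813). Endothelial genes varied in WT: Pecam1 was at 31.6 and 28 CPM in 48Q and 4.43 and 18.1 in WT (edgeR adjusted p = 0.211). Of 18 tested 1 was called higher (Esam) and 2 lower (Emcn and Angpt2). Emcn, endomucin of veins and capillaries, was at 11 and 9.41 CPM in 48Q and 59.6 and 40.1 in WT (edgeR adjusted p = 0.0296), against the direction of the list, whose median was 1.44, 0.72 without WT replicate 1 and 2.77 without WT replicate 2. Without WT replicate 2 the calls were 7 higher and 1 lower.

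**Figure D4:**
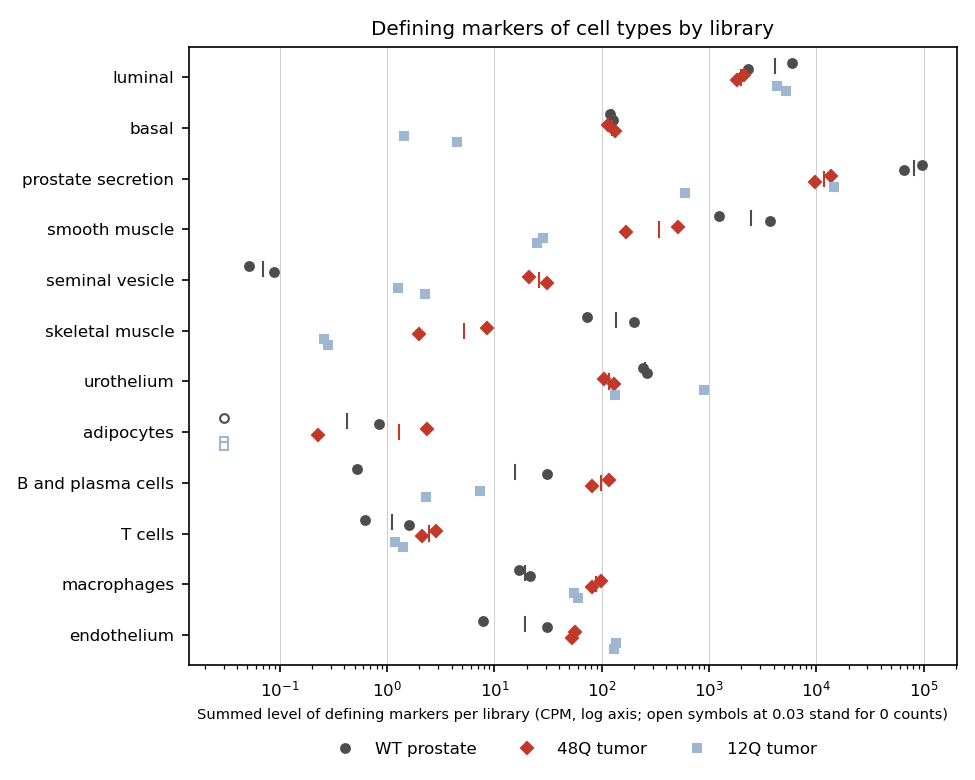
Summed levels of the defining markers of 12 cell types (CPM, log axis) in each library of WT prostate (circles), 48Q tumors (diamonds) and 12Q tumors (squares); short bars mark the WT and 48Q means and open symbols stand for 0 counts. Basal markers are level between WT and 48Q and far lower in 12Q; macrophage markers are higher in both 48Q libraries than in WT, and smooth and skeletal muscle markers lower.

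Many macrophage genes were called higher in 48Q. Of 19 tested 10 were called higher, 0 lower and 9 neither, with a median of 2.09 (1.87 to 2.24 without each library in turn). Members called numbered 1, 1 and 6 without 48Q replicate 1, 48Q replicate 2 and WT replicate 2, and 15 by DESeq2 without WT replicate 1. Adgre1, the F4/80 antigen, was at 26.4 and 23.2 CPM in 48Q and 4.49 and 3.63 in WT (edgeR log2 fold change 2.61 ± 0.31, adjusted p = 0.0159). C1qa, a complement subunit, was at 58.3 and 57.2 CPM in 48Q and 15.8 and 13.5 in WT (edgeR log2 fold change 1.98 ± 0.22, adjusted p = 0.0136). Trem2, a lipid receptor of tumor and tissue macrophages, was at 7.92 and 8.33 CPM in 48Q and 0.261 and 0.310 in WT (edgeR log2 fold change 4.81 ± 0.49, adjusted p = 0.011). The resident macrophage genes were not called: Lyve1 was at 4.55 and 3.08 CPM in 48Q and 22.2 and 12.8 in WT (edgeR adjusted p = 0.0558) and Cd163 at 3.04 and 2.88 CPM in 48Q and 2.4 and 4.64 in WT (edgeR adjusted p = 0.804). In Adgre1, C1qa and Trem2 the replicates of each group were close. 12Q tumors were at 56.5 and 58.3 CPM in C1qa and at 0.0370 and 0.0309 CPM in Cd163, which differed from 48Q (edgeR log2 fold change 6.28, adjusted p = 0.0229).

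The antigen presentation genes Cd74 and H2-Ab1, both of class II, were called higher in 48Q than in WT and than in 12Q. Cd74, the invariant chain, was at 314 and 303 CPM in 48Q and 78.5 and 92.7 in WT (edgeR log2 fold change 1.85 ± 0.22, adjusted p = 0.0172) and at 94.4 and 86.2 in 12Q (edgeR log2 fold change 1.77, adjusted p = 0.0229). H2-Ab1, a class II chain, followed, at 67.1 and 67.9 CPM in 48Q and 18.5 and 23.3 in WT and 23.9 and 13.5 in 12Q (edgeR adjusted p = 0.0448 and 0.0406). Of 18 tested members of the list 3 were called higher (Cd74, H2-Ab1 and H2-T23; 0, 0 and 1 without 48Q replicate 1, 48Q replicate 2 and WT replicate 2) and 0 lower, while the class I gene H2-K1 was at 508 and 437 CPM in 48Q and 357 and 373 in WT (edgeR adjusted p = 0.498). In T and NK cell genes 0 of 13 were called although all 13 lay above both WT libraries, beside 34.7% of all tested genes. Their median was 1.61. Cd3e of T cells was at 2.83 and 2.11 CPM in 48Q and 0.626 and 1.59 in WT, at low counts. Jchain, which joins secreted antibodies, was at 117 and 80.8 CPM in 48Q and 0.261 and 30.7 in WT, uneven in WT and not called (edgeR adjusted p = 0.327). Of 9 tested mast cell genes 1 was called higher than WT (Ms4a2). Against 12Q 5 were called higher in 48Q, beside 475 of all 15050 tested genes. Cpa3, the mast cell carboxypeptidase, was at 8.55 and 5.65 CPM in 48Q and 2.97 and 2.34 in WT and 0.0740 and 0 in 12Q (edgeR log2 fold change 7.51, adjusted p = 0.0246). Of 6 tested neutrophil genes 2 were called higher, S100a8 and Csf3r, and 5 lay above both WT libraries. The other 1, Il1r2, a decoy receptor for interleukin 1, lay below them at 8.28 and 5.48 CPM in 48Q and 39.8 and 39.8 in WT (edgeR adjusted p = 0.0787), and with it the list summed to less in 48Q (22.2 and 19.5 CPM) than in WT (40.5 and 40.2 CPM). Interferon-stimulated genes gave 3 calls upward of 22 (Oas1a, Ifi44 and Irf7), which were lost without any 1 of the 4 libraries, with 18 above both WT libraries and a median of 1.53. Ifi44 was at 18.3 and 21.4 CPM in 48Q and 1.93 and 2.08 in WT (edgeR log2 fold change 3.30 ± 0.51, adjusted p = 0.0273).

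Each list of signalling genes gave at most 4 calls in a direction, beside 3.95% of all tested genes called higher and 1.23% lower. Of 26 tested chemokines and cytokines 4 were called higher (Cxcl16, Tgfb1, Cxcl5 and Cxcl15; 1 without either 48Q library) and 0 lower. Tgfb1, a growth inhibitor and matrix inducer, was at 32.9 and 40.4 CPM in 48Q and 10.1 and 8.89 in WT (edgeR log2 fold change 1.95 ± 0.24, adjusted p = 0.0182) and higher in 12Q, at 80.6 and 94.6 CPM (edgeR log2 fold change -1.26, adjusted p = 0.0442). Cxcl5, which attracts neutrophils, was at 9.27 and 7.27 CPM with 0 counts in WT (at least 57.2-fold, edgeR adjusted p = 0.0186). In the BMP pathway 3 of 26 were called higher: the ligand Bmp2 (64.1 and 45.6 CPM in 48Q and 2.97 and 4.69 in WT, edgeR adjusted p = 0.0194) and the inhibitors Bambi and Nog. Areg, an EGF receptor ligand, was the 1 called of 16 tested genes of the EGF family and its receptors. It was uneven between tumors, at 4.43 and 20.7 CPM against 0.0522 and 0.0884 (edgeR adjusted p = 0.0251). Of 15 tested genes of the IGF axis 2 were called higher, H19, an imprinted fetal RNA, and Igfbp7, an IGF-binding protein. Irs1, the insulin receptor's adaptor, was the 1 called lower, at 57.3 and 78.7 CPM in 48Q and 178 and 181 in WT (edgeR adjusted p = 0.0422). In the Notch pathway Dtx4 and Lfng were the 2 called of 20, Dtx4 at 76.1 and 81.9 CPM in 48Q and 8.35 and 5.31 in WT (edgeR log2 fold change 3.53 ± 0.55, adjusted p = 0.0283). Ihh, a hedgehog ligand, was the 1 called of 15 tested hedgehog genes, at 10.9 and 13.3 CPM in 48Q and 0.991 and 1.68 in WT (edgeR adjusted p = 0.0362). Egr1, Ier3 and Zfp36, immediate early genes, were called higher of 16, Egr1 at 176 and 118 CPM in 48Q and 29.8 and 41.5 in WT (edgeR log2 fold change 2.04 ± 0.30, adjusted p = 0.0251). Of 21 tested FGF pathway genes 1 was called higher and 1 lower. The gene called lower was Spry1, a brake on FGF signalling, which was also called lower against 12Q. Spry1 was at 23.2 and 21.4 CPM in 48Q, 51.5 and 51.2 in WT and 51.2 and 48.4 in 12Q (edgeR adjusted p = 0.0353 and 0.0408). Of 27 Hox genes 0 were called; Hoxb13, the prostate Hox gene, was at 127 and 113 CPM in 48Q and 201 and 246 in WT (edgeR adjusted p = 0.359).

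**Figure D5:**
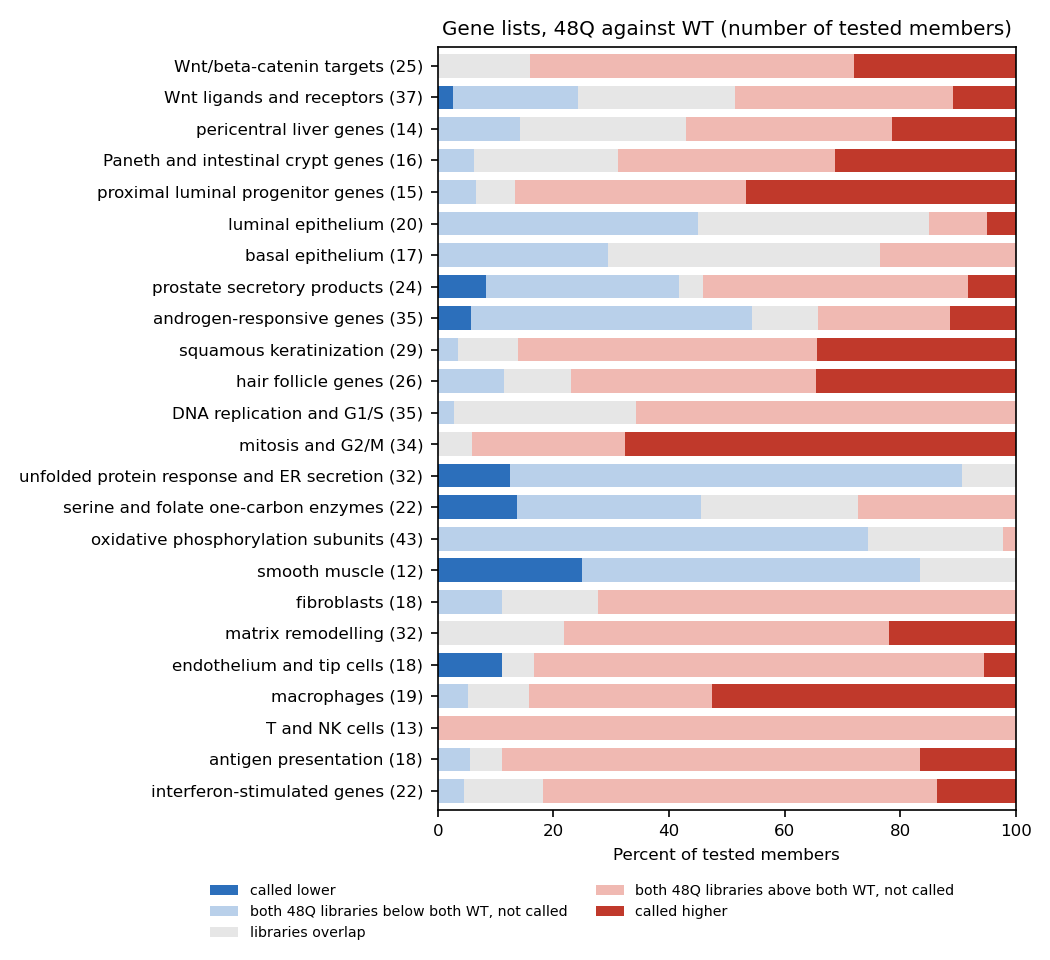
Share of tested members (x axis, percent) of 24 gene lists that were called higher or lower in 48Q than WT (dark), that lay wholly above or below WT without a call (pale) or whose libraries overlapped (grey); numbers in brackets are tested members. Mitosis has 23 of 34 and macrophages 10 of 19 members called higher, while in the unfolded protein response 29 of 32 lie below both WT libraries with 4 called.

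The genes with the greatest changes were a mixed set. Among the 12 largest fitted increases in genes of at least 10 CPM were Gulo, Teddm1b, Slc1a2, Pla2g2a, Clca1, Gsdmc2, Slco1b2, Defa21, Spp1, Apoc4 and Dmbt1, each with at most 3 counts in a WT library. Slco1b2, a liver organic anion transporter, was at 8.04 and 13 CPM in 48Q and at 0 counts in WT and in 12Q (at least 72.9-fold over WT, edgeR adjusted p = 0.0247). Teddm1b was at 79.2 and 80.5 CPM with 0 counts in WT, at least 552-fold higher, and at 2.04 and 1.11 in 12Q. Apoc4, an apolipoprotein, was at 19.1 and 26.8 CPM in 48Q and 18.9 and 19.7 in 12Q, with 1 count in WT. Dmbt1, a mucin-like protein of epithelia, was at 30.2 and 13.3 CPM against 0.0522 and 0, and 0.111 and 0 in 12Q (edgeR log2 fold change 8.60, adjusted p = 0.0246).

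The 12 largest decreases were Mcoln3, Aldh1l2, Acta1, Fgl1, Ren2, Ppm1e, Tmem45b, Chac1, Aldh1a2, Wbscr17, Nkain1 and Asns. Mcoln3, an ion channel of endolysosomes, was at 1.17 and 0.0856 CPM in 48Q and 28.8 and 29.2 in WT (edgeR log2 fold change -5.52 ± 1.03, adjusted p = 0.0402; -8.33 to -4.63 without each library in turn), with even WT libraries and uneven tumors. Fgl1, a secreted fibrinogen-like protein, was at 48.4 and 31.9 CPM in 48Q and 1149 and 552 in WT (edgeR log2 fold change -4.40 ± 0.58, adjusted p = 0.0194). Aldh1a2, which makes retinoic acid, was at 3.46 and 8.9 CPM in 48Q and 98.4 and 90.7 in WT (edgeR log2 fold change -3.93 ± 0.53, adjusted p = 0.0205). The row named Ren2 was at 822 and 297 CPM in 48Q and 17583 and 5753 in WT (edgeR adjusted p = 0.0445). Its place in the table (chromosome 1, 133350566 to 133360323) is that of Ren1 in the GENCODE M21 annotation, and since mouse strains differ in whether they carry another, near-identical renin gene, this value is uncertain. Chac1, which breaks down glutathione under stress, was at 1.11 and 1.23 CPM in 48Q and 28.5 and 7.96 in WT (edgeR log2 fold change -3.96 ± 0.70, adjusted p = 0.0362), with WT replicate 1 again the higher WT library. Ppm1e, a phosphatase, and Acta1 were instead highest in WT replicate 2, Ppm1e at 7.86 and 3.94 CPM in 48Q and 55.1 and 139 in WT (edgeR adjusted p = 0.0404). Wbscr17, a glycosyltransferase gene, was at 2.23 and 1.25 CPM in 48Q and 21.6 and 24.7 in WT and nearly absent from 12Q, at 0 and 0.0309 CPM (edgeR log2 fold change 6.37, adjusted p = 0.0229).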

How the data were processed

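Total RNA of mouse prostate tumors and normal prostate was sequenced after Kapa RNA HyperPrep library preparation, per the labels' protocols. The authors deposited 1 table of whole-number counts per gene and library, and the submitters' processing notes name TopHat2 2.0.14, HTSeq 0.6.0 and the build mm10. Not given in the sources used here are the strand setting, the annotation and the handling of reads with several matches, so overlapping genes and near-identical copies are uncertain. Among the genes named, exons overlap those of another annotated gene in Aldh1l2, Aldoa, Apoc4, Axin2, Ccna2, Ccnd1, Cd3e, Cd74, Cdk6, Ckm, Ctnnb1, Cxcl16, Ddit3, Elovl6, Gapdh, Gata3, Glul, H19, Homer2, Igfbp7, Irf7, Irs1, Krt10, Krt5, Krt6a, Krt8, Lef1, Lox, Mboat2, Mgll, Mmp7, Mt2, Notum, Olfm4, Pdgfra, Pkm, Ppp1r1b, Rhbg, Runx1, Slc1a2, Sox4, Spp1, Spry1, Tagln, Tbx3, Tgm4, Tmem45b, Tnc, Tnnc2 and Zfp36.

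Groups came from the sample labels. Totals were 27416387 and 28278522 counts in 48Q and 27082455 and 27882291 in WT, so 3 counts correspond to 0.0856 to 0.156 CPM. The filter was filterByExpr of edgeR (minimum count 10, total 15). Counts were scaled by TMM and tested by edgeR's quasi-likelihood test (edgeR 4.0.16, R 4.3.3) in 1 fit of all 6 libraries, with 3 residual degrees of freedom. P-values were Benjamini-Hochberg adjusted over all 15050 genes, with a threshold of 0.05. The code was run on simulated counts with the same dispersion for all genes, which does not check how the fit handles uneven libraries such as these. Bounds set a group at 0 to 3 counts per library. Ratios with 1 to 3 counts carry 95% intervals for counting error. Alternatives were DESeq2 size factors, library totals, no filter, DESeq2 1.42.0, only the groups compared, a replicate block and each library left out; DESeq2 without WT replicate 1 was added after seeing the data.

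Members and gene lists were chosen with earlier results of these data known. Genes named were Ctnnb1, the 12 largest increases and decreases among called genes with groups that do not overlap, at least 10 CPM in the higher group and a gene symbol that is not a clone name, the 10 genes with the most reads in each group, up to 4 called members of each list with the smallest p (or 2 with the highest level where none passed), and other list members where their list is counted. Of 24091 symbols 23446 lay at the same place in GENCODE M21. A few genes that meet this rule are not reported here. Figures were drawn with matplotlib 3.10.9.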

Additional observations from a re-analysis of the deposited data

How the results depend on the processing

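Beside 595 higher and 185 lower genes, library totals gave 1921 and 83, DESeq2's Wald test 1561 and 979, and only the groups compared 828 and 342. DESeq2 without WT replicate 1, chosen after seeing the data, gave 1059 and 439. Higher genes made up 76.28% of the calls, 95.86% with library totals, and 61.46% with DESeq2. Leaving out each of the 6 libraries in turn gave 0 to 858 higher and 0 to 390 lower, the 0 in both without WT replicate 1. The genes called in 48Q against 12Q, 627 in all, became 2481 with DESeq2, 2958 with DESeq2 without WT replicate 1, and 47 to 866 without each library in turn. The cause of these shifts was not tested. All 118 called genes named kept their sign in each setting, and 28, 26, 0 and 53 of them were still called without 48Q replicate 1, 48Q replicate 2, WT replicate 1 and WT replicate 2.

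Genes that were not called changed sign in some settings, and the cause was not tested. With library totals their log2 fold changes were Aldoa 0.51, Anln 0.45, Ccnd1 0.50, Cd163 0.41, Cdh1 0.27, Csnk1a1 0.53, Krt14 0.24, Ldha 0.27, Pttg1 0.65, Tbx3 0.42 and Trp63 0.17. With DESeq2 without WT replicate 1 they were Anln 0.16, Cdh1 0.25, Csnk1a1 0.11, Krt14 0.85, Krt19 0.69 and Krt8 0.49. The ranges without each library in turn were Anln -0.64 to 0.15, Ccnd1 -0.68 to 0.68, Cd163 -0.65 to 0.29, Cdh1 -0.94 to 0.24, Csnk1a1 -0.42 to 0.10, Hal -0.19 to 3.02, Krt14 -1.21 to 0.85, Krt19 -1.93 to 0.68, Krt8 -1.66 to 0.48 and Pttg1 -0.36 to 0.21.

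With the replicate number as a block 659 genes were called higher and 195 lower. Deviations of same-numbered 48Q and WT libraries correlated at r = -0.1035 (48Q and 12Q 0.0252, WT and 12Q 0.1337), so the numbers were not taken as a pairing. At 2 libraries a group and 3 residual degrees of freedom, small differences could not be called, and genes under a few counts per library carry wide intervals.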

Other observations

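2 housekeeping genes of glycolysis, singled out after their values were seen, were nearly uncounted in every library. Gapdh was at 0.994 and 0.913 CPM in 48Q, 0.209 and 0.265 in WT and 0.444 and 2.41 in 12Q, and Eno1 at 1.26 and 1.94, 0.730 and 1.06 and 0.444 and 2.85. Aldoa, an enzyme of the same pathway, was at 322 and 314, 397 and 326 and 1190.5 and 1161 CPM. How the counting treated reads with several matches is not given in the sources used here, and low counts of such genes were not read as low expression.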
